A study of Mus musculus with 6 samples.

Results

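Small leucine-rich proteoglycans are secreted matrix proteins with a curved core of leucine-rich repeats, and many of them carry chondroitin, dermatan or keratan sulfate chains. They bind along collagen fibrils and help to set fibril width and spacing, and several also bind growth factors such as TGF-beta. In skin, decorin is the best known member, and mice without it have fragile skin with irregular collagen fibrils. 10 genes of the family were examined among the 55291 genes of the deposited table, chosen by gene name. Decorin (Dcn), biglycan (Bgn) and asporin (Aspn) are class I members. Lumican (Lum), fibromodulin (Fmod), Prelp, osteomodulin (Omd) and keratocan (Kera) are class II members, mimecan (Ogn, also called osteoglycin) is a class III member, and podocan (Podn) is a class V member.

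Dorsal skin was shaved, removed and sequenced as bulk RNA from 3 mice of the tight skin strain (TSK) and 3 littermates of wild type (WT), all C57BL/6 and labelled as 6 to 8 weeks of age, with 1 library for each mouse. TSK mice carry a germline duplication inside Fbn1, the gene of the microfibril protein fibrillin 1, so the change is not limited to one cell type. The study compared TSK with WT skin to ask how far TSK fibroblasts resemble the cancer-associated fibroblasts that promote tumors. Each value below is in CPM, counts of a gene per 1000000 counts of its library, as deposited, unless another scale is named.

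The 6 libraries held 17561453 to 19219814 estimated counts. Fbn1 stood at 267, 289 and 262 CPM in WT 1, 2 and 3 and at 1538, 2284 and 2007 CPM in TSK 1, 2 and 3 (log2 fold change 2.54, SE 0.22, adjusted p = 0.00327, edgeR's quasi-likelihood test). The labels give all mice as female and the study's methods describe male mice, and the Y-linked gene Ddx3y was at 56.7 to 72.8 CPM in all 6 libraries. The keratinocyte markers Krt5 and Krt14 were abundant in every library. Together, 16 adult skeletal muscle markers made up 166460, 242142 and 229277 CPM in WT 1, 2 and 3 and 144332 to 164344 CPM in TSK libraries. The 14 fibroblast markers together stood at 6449 to 9745 CPM in WT and 20767 to 48020 CPM in TSK libraries, and 13 of the 14 were highest in TSK 3. Among the muscle markers, 12 of 16 log2 fold changes (TSK minus WT) were below 0, with a median of -0.76, and -0.96 without WT 1. DESeq2 called 11 of them lower. With all libraries edgeR called none lower, and there 8 of those below 0 had an unadjusted p under 0.05. Among keratinocyte markers, 5 of 8 were below 0 (median -0.26, between -0.48 and -0.06 when 1 library was left out). The log2 fold changes of endothelial markers were above 0 in 7 of 7 (median 0.99, each highest in TSK 2), those of macrophage markers in 9 of 9 (median 0.98, and 0.43 without TSK 3, in which each was highest) and those of adipocyte markers in 11 of 12 (median 2.64, and 1.32 without TSK 2, in which 11 were highest). They were above 0 in 9 of 10 hair follicle markers (median 1.05), 8 of 8 smooth muscle and pericyte markers (median 0.67) and 7 of 7 Schwann cell markers (median 0.54, and 0.98 without WT 1). The part of any of these cell types in the differences below was not tested. In whole skin, fewer cells of a type and less RNA per cell cannot be told apart.

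Most members lie in 3 gene clusters of the mouse genome (GRCm38, the mm10 build). Prelp (chr1:133910304-133921414, minus strand) and Fmod (chr1:134037254-134048277, plus strand) lie head to head, 115839 bases apart, beside the family gene Optc. Dcn (chr10:97479609-97518143), Lum (chr10:97565128-97572703) and Kera (chr10:97606879-97613692) lie in a row with Epyc within 203 kb. Aspn (chr13:49544443-49567565), Omd (chr13:49582462-49592822) and Ogn (chr13:49608046-49624501) follow Ecm2 within 120 kb. Bgn (chrX:73483602-73495933) and Podn (chr4:108014791-108096445, minus strand) lie apart from the others.

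The promoters of Prelp and Fmod are shown because these neighbours had the 2 highest fold changes between TSK and WT skin among the 9 members tested. Each run is the 250 bases before the gene's RefSeq start, read 5′ to 3′ on the gene's strand, in lower case, with capitals marking the letters CAGAC on either strand, the core of the SMAD half-site that TGF-beta signalling uses.
Prelp, chr1:133921402-133921651 (GRCm38.p6, minus strand): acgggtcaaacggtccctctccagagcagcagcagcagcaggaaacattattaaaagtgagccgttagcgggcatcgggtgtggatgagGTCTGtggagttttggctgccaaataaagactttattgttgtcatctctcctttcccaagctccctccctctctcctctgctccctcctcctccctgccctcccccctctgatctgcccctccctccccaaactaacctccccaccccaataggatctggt
Fmod, chr1:134037004-134037253 (GRCm38.p6, plus strand): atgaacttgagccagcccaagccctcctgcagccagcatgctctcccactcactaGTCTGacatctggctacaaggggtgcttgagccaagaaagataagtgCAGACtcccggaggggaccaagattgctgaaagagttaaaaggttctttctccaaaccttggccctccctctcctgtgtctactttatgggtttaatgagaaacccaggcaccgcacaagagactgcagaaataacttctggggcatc
RefSeq promoter windows were found for 8 of the 10 members, with 9 windows in all. CAGAC was present in 2 of the 9 windows, those of Prelp and Fmod, and in 42.2% of 32851 mouse promoter windows of the same length. The TATA box letters TATAAA were present in 2 of the 9 windows, those of Aspn and Ogn, against 12.4% of all windows. The E-box CANNTG was present in 6 of the 9 windows against 66.2% of all windows. These matches are short runs of letters and describe the sequence only.

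Of the 9 members with enough counts to test, all 9 had a log2 fold change above 0 (TSK minus WT), with a median of 0.81, and 1 member, Prelp, was called higher in TSK skin at an adjusted p below 0.05. Over all 19971 genes tested, 2.71% were called higher and 0.681% lower, the median log2 fold change was -0.03 and 47.0% of genes were above 0. No member was called lower by edgeR or DESeq2. At the stricter thresholds of the study (2.5-fold with an adjusted p under 0.01), no member was called by edgeR, while 0.255% of all genes were called higher and 0.0351% lower. Prelp just missed the adjusted p of this pair and met both thresholds under DESeq2, by which 1.4% of all genes were called higher in that way. The summed CPM of the 10 genes was 301, 420 and 442 in WT 1, 2 and 3 and 606, 894 and 1012 in TSK 1, 2 and 3, without overlap.

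**Figure D1:**
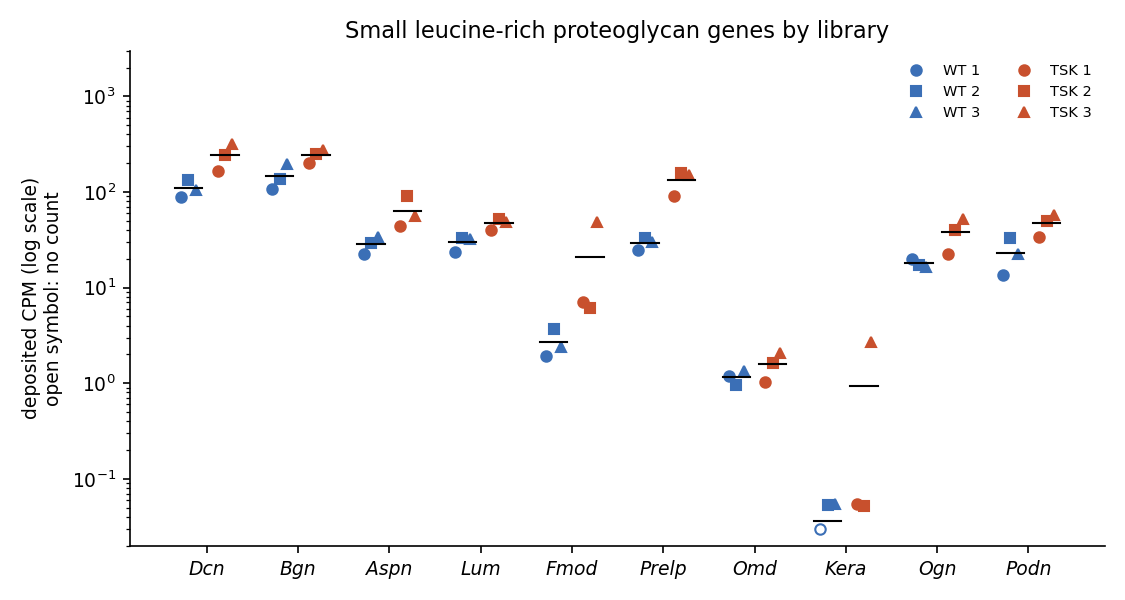
Deposited CPM (log axis) of the 10 genes in each library, with WT in blue, TSK in orange, 1 symbol per mouse, a black line at each group mean, and an open symbol where the library had no count. Prelp shows the widest clear gap between groups, while the TSK mean of Fmod and of Kera is carried by TSK 3.

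Prelp, a class II member with an arginine-rich region that binds heparan sulfate chains, was the only member called by edgeR with TMM scaling. It was at 25.0, 33.0 and 30.1 CPM in WT 1, 2 and 3 and at 89.8, 159 and 151 CPM in TSK 1, 2 and 3. The lowest TSK library was thus well above the highest WT library. Prelp rose from 29.4 ± 4.03 to 133 ± 37.9 CPM (mean ± SD, n = 3 each), a log2 fold change of 1.88 (SE 0.25, adjusted p = 0.0107, edgeR). The log2 fold change was 1.73 to 2.08 when any 1 library was left out, and the adjusted p was 0.00784 to 0.0577. The call was lost without WT 3 (adjusted p = 0.0577) and kept when any other library was left out. Without WT 3, 0.218% of all genes tested were called higher. Prelp shares 350 exon bases with the antisense gene Gm15851, which itself had 4 estimated counts in WT 1, 1 in TSK 2 and none in the other libraries. The strand setting of the counting was not given in the sources used here.

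Fmod, a class II member that binds type I collagen and is abundant in tendon and cartilage, had the highest fold change of the 9 members tested but was not called. It was at 1.94, 3.67 and 2.42 CPM in WT 1, 2 and 3 and at 7.04, 6.19 and 49.0 CPM in TSK 1, 2 and 3. The groups did not overlap, and TSK 3 stood far above the other TSK libraries. The log2 fold change was 2.62 (SE 0.80, adjusted p = 0.114, edgeR), and it was 1.02 without TSK 3 (adjusted p = 0.183). Both values miss the threshold.

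Kera, a keratan sulfate proteoglycan known from the cornea, had almost no counts. There were 0, 1 and 1 counts in WT 1, 2 and 3 and 1, 1 and 51 counts in TSK 1, 2 and 3, so that all but a few of its counts came from TSK 3. It was left out of the test by the filter on low counts, and no fold is given.

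Lum, a class II member of skin and cornea whose loss in mice gives loose skin, was at 23.4, 33.1 and 32.6 CPM in WT 1, 2 and 3 and at 40.0, 52.1 and 48.6 CPM in TSK 1, 2 and 3. The groups did not overlap in CPM but overlapped after TMM scaling. Its log2 fold change was 0.36 (SE 0.21, adjusted p = 0.384, edgeR) and 0.17 without WT 1. Omd, a keratan sulfate proteoglycan of bone, was close to the lower limit of the test, at 1.19, 0.960 and 1.34 CPM in WT 1, 2 and 3 and at 1.03, 1.64 and 2.06 CPM in TSK 1, 2 and 3. The groups overlapped, the log2 fold change was 0.18 (SE 0.31, adjusted p = 0.801, edgeR), and it was -0.032 without TSK 3, 0.31 without WT 3 and 0.38 without TSK 1. Omd holds stretches of up to 184 bases that are at least 95% identical to transcripts of other genes, so its values are uncertain.

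Dcn, the class I dermatan sulfate proteoglycan that coats collagen fibrils of the dermis, was at 87.7, 134 and 105 CPM in WT 1, 2 and 3 and at 165, 242 and 320 CPM in TSK 1, 2 and 3. Every TSK library was above every WT library in CPM, and the groups overlapped after TMM scaling. The means were 109 ± 23.4 and 242 ± 77.9 CPM (SD, n = 3 each). The fitted log2 fold change was 0.84 (SE 0.28, adjusted p = 0.143, edgeR). DESeq2 gave an adjusted p of 0.0349 for Dcn, so its call depended on the test.

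Bgn, the closest relative of Dcn, was at 106, 135 and 197 CPM in WT 1, 2 and 3 and at 203, 252 and 272 CPM in TSK 1, 2 and 3. WT 3 and TSK 1 were next to each other, and the groups overlapped after TMM scaling. Its log2 fold change was 0.42 (SE 0.26, adjusted p = 0.404, edgeR), 0.21 without WT 1 and 0.72 without WT 3.

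Aspn, the class I member with a run of aspartate residues in place of the sugar chains, was at 22.3, 29.4 and 33.8 CPM in WT 1, 2 and 3 and at 44.0, 90.4 and 55.7 CPM in TSK 1, 2 and 3. The groups did not overlap on either scale, and TSK 2 was the highest library. Its log2 fold change was 0.85 (SE 0.29, adjusted p = 0.147, edgeR) and 0.51 without TSK 2. Aspn shares 7 exon bases with the protein-coding gene Cenpp on the opposite strand.

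Ogn, a class III member first purified from bone and widespread in connective tissue, was at 19.9, 17.4 and 16.6 CPM in WT 1, 2 and 3 and at 22.5, 40.2 and 52.7 CPM in TSK 1, 2 and 3. The groups did not overlap on either scale, although TSK 1 was close to WT 1. The log2 fold change was 0.81 (SE 0.25, adjusted p = 0.119, edgeR) and 0.54 without TSK 3. Ogn passed under DESeq2 (adjusted p = 0.0375) and, with edgeR, when TSK 1 was left out (adjusted p = 0.0199).

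Podn, a class V member found in smooth muscle and fibroblasts, was at 13.6, 33.2 and 22.7 CPM in WT 1, 2 and 3 and at 34.2, 50.1 and 57.8 CPM in TSK 1, 2 and 3. TSK 1 was just above WT 2 in CPM, and the groups overlapped after TMM scaling. Its log2 fold change was 0.70 (SE 0.35, adjusted p = 0.315, edgeR), 0.40 without WT 1 and 1.15 without WT 2.

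TMM is a scaling that lessens the weight of the most abundant genes, and it had a clear bearing on these counts. With library size as the only scaling, the median log2 fold change of all genes moved from -0.03 to 0.25 and that of the members from 0.81 to 1.10, and 6 members (Dcn, Lum, Fmod, Prelp, Ogn and Aspn) were called higher, where 8.44% of all genes were called. DESeq2, which the study used, called 3 members higher (Dcn, Prelp and Ogn), with 5.13% of all genes called. Without a filter on low counts edgeR called Fmod, Prelp and Ogn, with 2.99% of all genes called higher. Prelp also met the stricter pair of thresholds with library size only, as 1.45% of all genes did, and without a filter, as 0.847% did. limma-trend on log2 of the deposited CPM called 6 members higher with a pseudocount of 1 and 5 with a pseudocount of 0.1, where 8.87% and 8.82% of all genes were called. Without overlap between groups, 8 of the 9 tested members were higher in TSK skin in CPM, against 29.1% of all genes, and 4 of 9 (Fmod, Prelp, Aspn and Ogn) after TMM scaling, against 14.1%. TSK 3 held the highest value of 6 of the 9 tested members and TSK 2 that of the other 3.

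**Figure D2:**
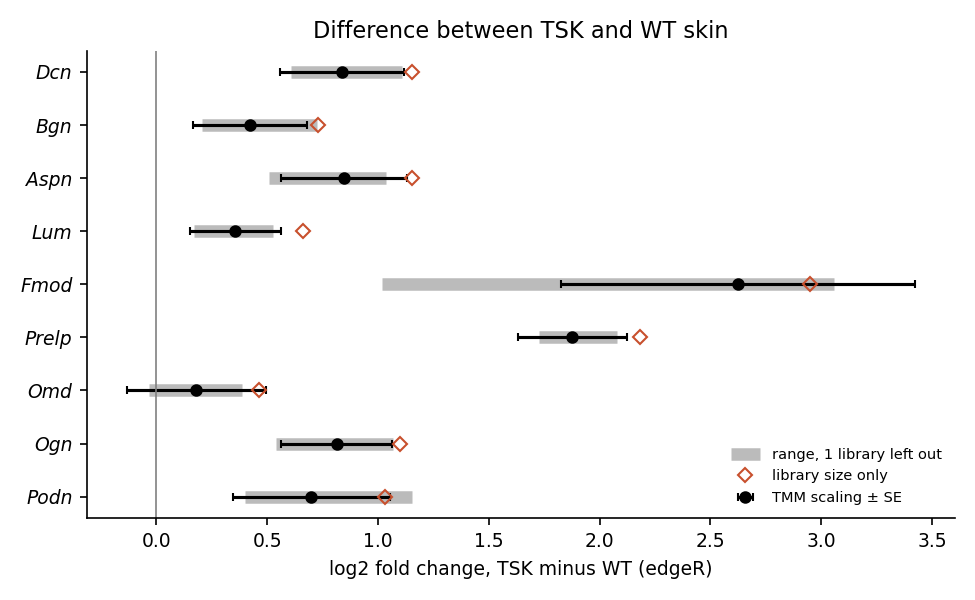
Log2 fold change (TSK minus WT, edgeR) of the 9 tested members, with black points and SE bars for TMM scaling, grey bars for the range when 1 library is left out, and open diamonds for library size only. Prelp at 1.88 has a narrow range far from 0, and Fmod at 2.62 reaches down to 1.02 without TSK 3.

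Levels of different members were compared in CPM per kb of exon length, since longer transcripts give more fragments. In WT skin the order was Bgn (23.97 CPM per kb), Dcn (18.7), Lum (12.1), Aspn (12.1), Prelp (8.12), Ogn (7.001), Podn (5.43), Fmod (0.81), Omd (0.517) and Kera (0.0158). In that order the WT libraries of Dcn and Lum, of Aspn and Prelp, of Podn and Fmod and of Omd and Kera did not overlap, and all other neighbours overlapped. In TSK skin the order was Dcn (41.5 CPM per kb), Bgn (39.7), Prelp (36.9), Aspn (26.9), Lum (19.2), Ogn (15.005), Podn (11.1), Fmod (6.28), Omd (0.702) and Kera (0.411). Only Fmod and Omd were neighbours without overlap in TSK skin. On this scale Prelp moved from the fifth to the third place by its mean and came within the range of Dcn and Bgn. The exon length counts all annotated exons of a gene, and the order depends on it. In CPM not scaled to length, Prelp was at 89.8 to 159 in TSK libraries, below Dcn (165 to 320) and Bgn (203 to 272).

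The makeup of the family within a library does not depend on the scaling of that library. Prelp made up 8.30%, 7.85% and 6.82% of the summed CPM of the 10 genes in WT 1, 2 and 3 and 14.8%, 17.8% and 14.95% in TSK 1, 2 and 3. Lum made up 7.75%, 7.87% and 7.38% in WT and 6.61%, 5.83% and 4.80% in TSK libraries. The share of Prelp was higher and that of Lum lower in every TSK library than in any WT library. Omd, at 0.309% ± 0.084 in WT and 0.186% ± 0.016 in TSK skin (SD, n = 3), was the only other member whose shares did not overlap between groups. For each of these 3 shares the exact permutation test (two-sided) gave p = 0.1, the smallest value that 3 against 3 libraries allow. Shares are parts of the same sum, so a higher share of Prelp goes with lower shares of others. The mean CPM of Lum (29.7 in WT, 46.9 in TSK) and of Omd (1.16 in WT, 1.58 in TSK) was higher in TSK skin. How often shares of other genes would not overlap was not computed. Dcn had a share of 28.3% ± 4.12 in WT and 28.6% ± 2.61 in TSK skin (n = 3, exact permutation p = 1). Bgn was at 37.4% ± 6.46 and 29.5% ± 3.50, with overlap (n = 3, exact permutation p = 0.2).

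**Figure D3:**
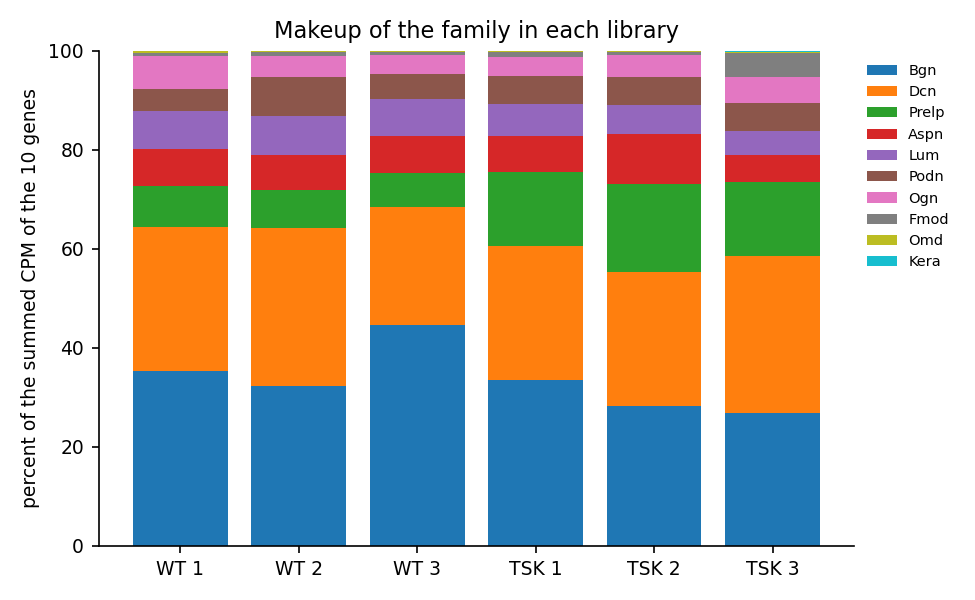
Percent of the summed CPM of the 10 genes taken by each gene in the 6 libraries, as stacked bars from 0 to 100%. Prelp fills 6.82% to 8.30% of a WT bar and 14.8% to 17.8% of a TSK bar, while Dcn and Bgn together fill most of every bar.

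Fibroblasts are the best known source of these transcripts in skin, and each tested member was also set against the summed CPM of the 14 fibroblast markers of the same library, as a log2 ratio. Against all 14 markers, 7 of 9 members had a negative difference (TSK minus WT), with a median of -0.67. The marker sum itself was higher in TSK skin, and on the same ratio 97.9% of the 19971 tested genes had a negative difference, with a median of -1.51. Bgn (-0.997), Lum (-1.09) and Omd (-1.36) were lower in every TSK library than in any WT library, each with an exact permutation p of 0.1, the smallest possible. These are 3 of 9 members, while 82% of all genes were lower without overlap and 0.28% higher. Prelp (0.39) and Fmod (0.56) had positive differences with overlap, and Prelp was at 0.031 without TSK 2 and Fmod at -0.0085 without TSK 3.

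The 14 markers included Col1a1, Col1a2 and Col3a1, which make up most of their sum and were each highest in TSK 3. Without these 3 collagens the log2 ratio of Prelp was -3.40, -3.34 and -3.35 in WT 1, 2 and 3 and -2.79, -2.34 and -3.00 in TSK 1, 2 and 3. Prelp was then higher in every TSK library than in any WT library, by 0.66 on the log2 scale (two-sided exact permutation p = 0.1). On this scale Dcn (-0.37), Bgn (-0.73), Lum (-0.82), Omd (-1.09) and Ogn (-0.47) were lower without overlap, each again with an exact permutation p of 0.1. Over all genes, 76.7% were lower without overlap on this scale and 0.591% were higher, and the median was -1.24 against -0.40 for the members. Which members did not overlap thus depended on the marker genes used.

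**Figure D4:**
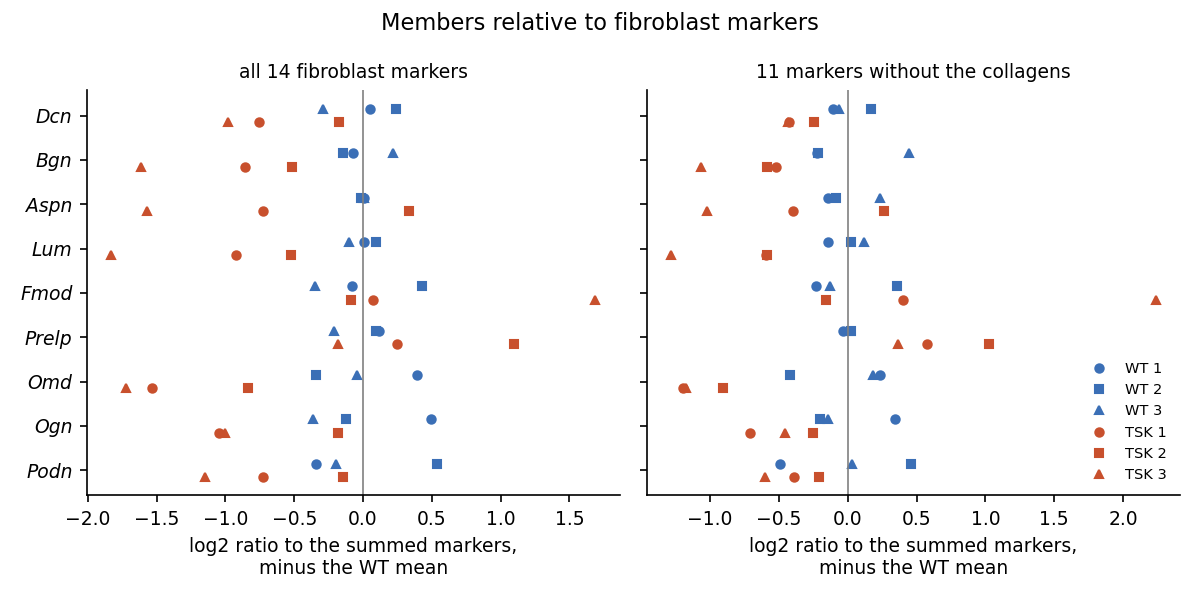
Log2 ratio of each tested member to the summed CPM of fibroblast markers, minus its WT mean, for all 14 markers on the left and for 11 markers without collagens on the right, with 1 symbol per mouse. On the right, Prelp lies to the right of 0 in all 3 TSK libraries, and Bgn, Lum and Omd lie to the left on both sides.

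The high Fmod and Kera values of TSK 3 were set beside genes of tendon and cartilage, tissues in which Fmod is abundant. Chad, a leucine-rich protein of cartilage and a relative of the family, had 0, 1 and 0 counts in WT 1, 2 and 3 and 0, 4 and 24 counts in TSK 1, 2 and 3. Tnmd, a membrane protein of tendon cells, was at 0.570, 0.532 and 0.550 CPM in WT and at 2.25, 1.40 and 5.62 CPM in TSK libraries. Comp, a matrix protein of tendon and cartilage, was at 0.399, 0.586 and 0.165 CPM in WT and at 0.385, 0.832 and 3.29 CPM in TSK libraries. These 3 genes had their highest value in TSK 3, as Fmod and Kera did. The same held for 13 of the 14 fibroblast markers and 9 of 9 macrophage markers, but for none of the 7 endothelial markers. A highest value in TSK 3 was thus not particular to genes of tendon and cartilage. The share of all genes that were highest in TSK 3 was not computed. Of 10 bone and cartilage markers, 3 had enough counts to test, none of them was called by edgeR or DESeq2, and 1 of the 3 (Runx2) was highest in TSK 3. Sox9 was at 79.7, 39.0 and 39.5 CPM in WT and at 82.0, 57.7 and 75.5 CPM in TSK libraries. Col2a1, the main collagen of cartilage, had 3, 1 and 0 counts in WT and 3, 0 and 9 counts in TSK 1, 2 and 3, with the highest in TSK 3. Acan had 11 counts in WT 2 and at most 6 in a TSK library, and Matn1 had none in any library.

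Of the other tendon markers, Mkx and Cilp2 were also highest in TSK 3 and the remaining 6 were not. Mkx was at 1.65, 0.504 and 0.374 CPM in WT and at 2.09, 1.93 and 3.39 CPM in TSK libraries, and Cilp2 was at 11.1 CPM in TSK 3 and at 10.1 CPM in WT 1. Scx, the tendon transcription factor, was at 4.27, 3.03 and 3.96 CPM in WT and at 3.79, 3.12 and 3.07 CPM in TSK libraries, and TSK 3 was also the lowest TSK library for Thbs4. In all, 4 of the 10 tendon and fascia markers were highest in TSK 3, and none was at 0 in a group. The median log2 fold change of the 10 was -0.06, and it was -0.20 (without TSK 3) to 0.11 (without TSK 2) when 1 library was left out. None of the 10 was called by edgeR with TMM scaling on all libraries, and 3 had an unadjusted p below 0.05. The count depended on the libraries used, since Tnmd was called without TSK 2 (adjusted p = 0.0325, edgeR). DESeq2 called Tnmd (adjusted p = 0.00368), and edgeR with library size only called Tnmd (adjusted p = 0.021) and Fibin (adjusted p = 0.0474). Their summed level was 230 to 494 CPM in WT and 280 to 334 CPM in TSK libraries. Whether tissue other than skin contributed to Fmod and Kera in TSK 3 was not tested.

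**Figure D5:**
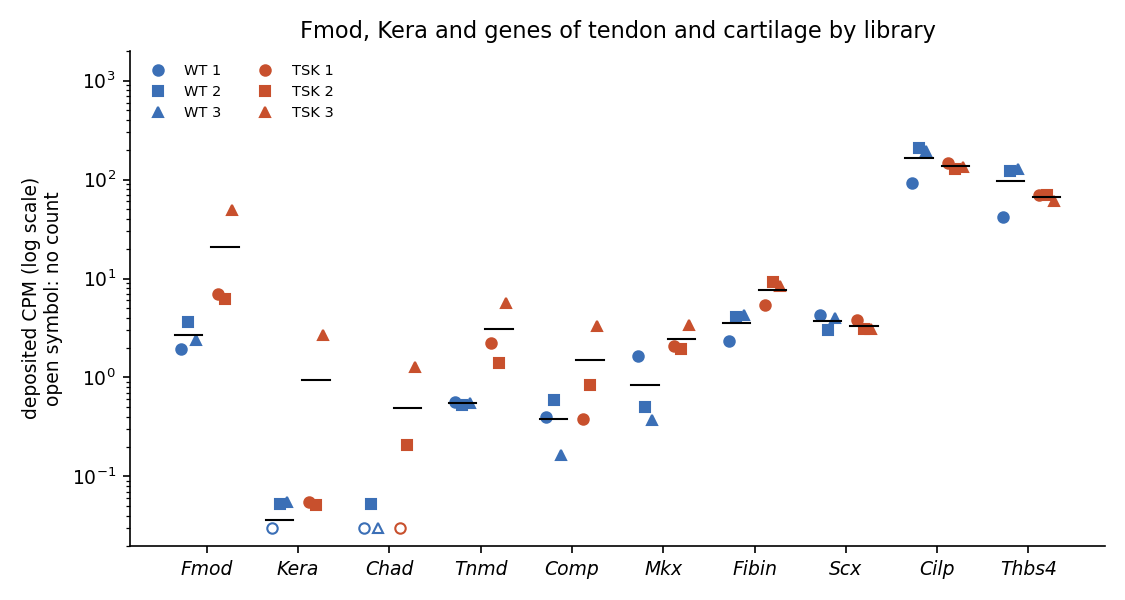
Deposited CPM (log axis) of Fmod, Kera, the cartilage gene Chad and tendon genes in each library, with WT in blue, TSK in orange, a black line at each group mean and an open symbol where the library had no count. TSK 3 is the highest library for Fmod, Kera, Chad, Tnmd, Comp and Mkx, and it is not for Fibin, Scx, Cilp and Thbs4.

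Among 7 further leucine-rich relatives of the family, 4 were tested, 3 had a log2 fold change above 0, and 2 were called higher. Ecm2, which lies beside Aspn in the cluster on chromosome 13, was at 10.1, 12.8 and 11.1 CPM in WT and 22.6, 27.9 and 27.0 CPM in TSK libraries (log2 fold change 0.89, SE 0.18, adjusted p = 0.0342, edgeR). Tsku, a small secreted relative that modulates several signalling pathways, was at 3.13, 4.21 and 5.33 CPM in WT and 8.96, 12.8 and 15.3 CPM in TSK libraries (log2 fold change 1.24, SE 0.28, adjusted p = 0.0498, edgeR). Neither gene overlapped between groups. Nyx was near the limit of the test, with a log2 fold change of -0.25 (adjusted p = 0.674, edgeR). Optc, beside Prelp, was tested and not called, whereas Epyc, Chad and Podnl1 had too few counts.

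The enzymes that build the sugar chains showed a mixed picture. The 6 enzymes of the linker between core protein and chain had a median log2 fold change of 0.17 (0.11 to 0.27 when 1 library was left out), with 4 above 0. None was called by edgeR or DESeq2 or had an unadjusted p below 0.05. By mean CPM over all libraries, not scaled to length, the highest were Fam20b (0.27), B3gat3 (-0.08) and Xylt1 (0.20). Of the 15 enzymes of chondroitin and dermatan sulfate, the chains of Dcn and Bgn, 13 were above 0 with a median of 0.58, and 4 were called higher by edgeR with TMM scaling, against 7 by DESeq2 and 10 by edgeR with library size only. Over all genes these 3 fits called 2.71%, 5.13% and 8.44% higher. The 4 were the chain polymerase subunit Chpf (1.21, adjusted p = 0.0304, edgeR) and the sulfotransferases Chst12 (1.27, adjusted p = 0.0123), Chst11 (0.94, adjusted p = 0.0304) and Chst15 (0.54, adjusted p = 0.0498). Csgalnact2 (-0.13) and Chpf2 (0.46), the highest of the 15 by mean CPM not scaled to length, were not called with TMM scaling.

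Of 5 enzymes of keratan sulfate, the chain of Lum, Fmod, Omd and Kera, 3 were tested and all 3 were above 0. Chst1, which sulfates galactose in this chain, was at 3.24, 3.77 and 3.63 CPM in WT 1, 2 and 3 and at 14.6, 44.4 and 22.2 CPM in TSK 1, 2 and 3. The groups lay far apart, and TSK 2 was the highest library. Chst1 rose by a log2 fold change of 2.63 (SE 0.39, adjusted p = 0.0148, edgeR). B3gnt2 (0.68) and Chst2 (0.64) were not called.

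Of 18 other proteoglycans, 16 were tested, 11 were above 0 with a median log2 fold change of 0.43, and 1 was called higher by edgeR with TMM scaling, the membrane-anchored glypican Gpc6 (1.36, adjusted p = 0.0139). DESeq2 called 3 higher, and edgeR with library size only called 6 higher, Hspg2 among them (adjusted p = 0.0296). The basement membrane proteoglycan Hspg2, the highest of the list in CPM not scaled to length, was at 520, 632 and 588 CPM in WT and at 856, 1026 and 997 CPM in TSK libraries (0.43, adjusted p = 0.275, edgeR with TMM scaling). Gpc1 (-0.65, adjusted p = 0.105) and Agrn (-0.10) were not called by edgeR with TMM scaling.

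All 11 tested collagen genes whose proteins the family binds were above 0, their median on the log2 scale was 1.19 with all libraries and 0.69 once TSK 3 was left out, and all 11 were highest in TSK 3. Col14a1, a fibril-associated collagen that binds decorin, was at 41.1, 68.6 and 65.0 CPM in WT and at 236, 310 and 415 CPM in TSK libraries (2.14, SE 0.30, adjusted p = 0.0123, edgeR), and it was the only one called by edgeR with TMM scaling. DESeq2 and edgeR with library size only each called 7 of the 11 higher, Col1a1, Col1a2 and Col3a1 among them. Col1a1 (1.84, adjusted p = 0.0654), Col1a2 (1.56, adjusted p = 0.0821) and Col3a1 (1.24, adjusted p = 0.119), the chains of the main dermal fibrils, were not called by edgeR with TMM scaling.

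Bmp1, the protease that cuts the propeptides of Bgn, Dcn and fibrillar procollagens, was at 49.2, 48.1 and 56.3 CPM in WT and at 116, 136 and 187 CPM in TSK libraries (1.23, SE 0.19, adjusted p = 0.0171, edgeR). Its relatives Tll1 (0.57) and Tll2 (1.40) were not called. Of 10 growth factors and receptors that members of the family bind, 8 were above 0 with a median log2 fold change of 0.40. Egfr (0.10), Igf1r (0.33) and Met (-0.21) were the highest by mean CPM over all libraries, not scaled to length. None of the 10 was called by edgeR with TMM scaling, although 6 had an unadjusted p below 0.05, all of them above 0. DESeq2 called Kdr (adjusted p = 0.00647) and Tlr4 (adjusted p = 0.0118) higher, and edgeR with library size only called 4 higher (Tgfb2, Igf1r, Kdr and Tlr4). No gene of these pathway lists was called lower by edgeR with all libraries, while Gpc1 was called lower by DESeq2 (adjusted p = 0.0305) and by edgeR without WT 1 (adjusted p = 0.026). Each of the 10 calls in these lists was lost when WT 3 was left out, as that of Prelp was, with adjusted p-values of 0.0605 to 0.2 (edgeR). The calls of Chst1, Chst12, Gpc6, Col14a1 and Bmp1 were kept when any other library was left out. Those of Ecm2, Tsku, Chpf, Chst11 and Chst15 were also lost without TSK 2 and without TSK 3 (adjusted p = 0.0616 to 0.135, edgeR), and some of them without WT 2 or TSK 1.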

How the data were processed

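Shaved dorsal skin of 3 TSK and 3 WT mice was profiled by RNA-seq, and groups were taken from the labels. The authors made stranded libraries after removal of ribosomal RNA, sequenced single reads of 50 bases, aligned them with STAR to mm10 and counted Ensembl genes in Partek Flow 11.0. The authors deposited estimated counts, of which 43.3% to 45.4% of non-zero values were whole (within 0.001), and CPM, which are those counts per 1000000 of the library.

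The estimated counts were rounded and tested with edgeR 4.0.16 (quasi-likelihood test, TMM scaling, filterByExpr, 19971 genes, two-sided, Benjamini-Hochberg adjustment over all of them, R 4.3.3), after a check on simulated data. In that check edgeR called 42.3% of the genes given a log2 fold change of 1 and 94.6% of those given 2. Changes near or below 1 can thus be missed. DESeq2 1.42.0 and limma 3.58.1 were alternatives. Standard errors came from the fold change and its F statistic. Shares and ratios were compared by exact permutation over 20 splits. Promoters came from RefSeq (GRCm38.p6), positions from GENCODE M21, and near-identical transcripts from BLAST 2.17.0 (at least 50 bases at 95%).

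The members and the gene lists were chosen with earlier results of these data known. All members were named, and from each pathway list the genes called, at most 6, and the 3 highest by mean CPM. The tendon, cartilage and fibroblast genes set beside Fmod and Kera were named after their values were seen. Each library is 1 mouse, and p-values measure the spread between these mice.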

Additional observations from a re-analysis of the deposited data

How the results depend on the processing

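All 9 members kept a log2 fold change above 0 under every alternative except Omd, which was at -0.032 without TSK 3 and 0.384 without TSK 1, and no member was called lower in any. Of 153 single-member values under the alternatives, 131 kept their side of the threshold, 20 were called only under the alternative, 1 lost its call (Prelp without WT 3) and 1 reversed. The number of members called higher, 1 as reported, was 6 with library size only, 3 with DESeq2, 6 and 5 with limma-trend at pseudocounts of 1 and 0.1, 3 without a filter, and 0 to 2 when 1 library was left out (0 without WT 3, 2 without TSK 1), fits in which 0.218% (without WT 3) to 3.47% (without WT 1) of all genes were called higher, with 2.11% without TSK 1. At 2.5-fold and an adjusted p below 0.01 it was 0 as reported. It was 1, Prelp, with DESeq2 (1.4% of all genes called higher), with library size only (1.45%) and without a filter (0.847%). It was also 1, Prelp, with the size factors of DESeq2 in edgeR and with both limma-trend fits, for which the share of all genes was not computed. It was 0 to 1 when 1 library was left out (1 without TSK 1, as were 0.205% of all genes). With the replicate number as a block, 2 members (Prelp and Aspn) were called higher and 1 at 2.5-fold, against 3.33% and 0.421% of all genes. Whether the numbers pair the mice cannot be told from these data. Same-numbered libraries had correlations of 0.0112, 0.167 and -0.0938, within the range of the other pairs (-0.194 to 0.18). The median log2 fold change, 0.81 as reported, was 1.10 with library size only and 0.55 to 1.03 when 1 library was left out. Relative to fibroblast markers, 3 members (all lower, as were 82% of all genes) did not overlap between groups, 6 without the collagens (5 lower, as were 76.7% of all genes), and 3 to 7 when 1 library was left out (5 without WT 3, 7 without TSK 2). Of the family shares, 3 did not overlap, and 3 to 6 when 1 library was left out (6 without WT 2), with no value over all genes computed. With fewer libraries, groups overlap less by construction, and for the ratios with 1 library left out the share of all genes was not computed. Low counts limit what can be seen of Kera and Omd, and 3 mice a group limit the rest.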
